A study of Homo sapiens with 6 samples.

Results

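N-Myc occupied 3448 sites in CHP-134 neuroblastoma cells that lay outside every promoter, typical enhancer and super-enhancer listed for the factor and at which no JMJD6 peak was listed. They made up 35.2% (95% exact binomial interval 34.2 to 36.1) of the 9804 autosomal N-Myc peaks without a JMJD6 peak, out of 10172 N-Myc peaks in all. Members were chosen by their positions alone: a peak had to be on an autosome, be absent from the list of peaks shared with JMJD6, and overlap no row of the 3 lists of N-Myc-bound promoters, enhancers and super-enhancers. The distances to listed regions and the absence of JMJD6 are therefore descriptions of the choice. Sequence, base composition and place within genes were not used by it directly, although the choice of peak and the listed regions come from the same libraries.

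The series used chromatin immunoprecipitation with sequencing (ChIP-seq) to ask where JMJD6, a JmjC-domain hydroxylase, and the oncoprotein N-Myc sit on the genome of 1 neuroblastoma cell line. All 6 samples were CHP-134 cells with no drug or knockdown in their labels. The paper describes this line as MYCN-amplified, with a gain of part of the long arm of chromosome 17 that includes JMJD6. The 3 N-Myc samples were cross-linked with formaldehyde alone, and the 3 JMJD6 samples with disuccinimidyl glutarate (DSG) and then formaldehyde, so antibody and cross-linking cannot be told apart. Each list held only regions found in all replicates of an antibody and gave positions without heights, so the spread between replicates and the depth of each library are unknown here, and 1 cell line limits what the lists stand for.

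N-Myc is a basic helix-loop-helix leucine zipper protein that binds DNA as a dimer with MAX. The dimer prefers the palindrome CACGTG, the canonical E-box, and also takes related hexamers such as CATGTG and CACGCG. In neuroblastoma, where the MYCN gene is often amplified, the factor is known for binding most active promoters and many enhancers.

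The sequences below show the central 200 bases of some members with a CACGTG, since the results turn on the letters found there. Of all 3448 members, 994 (28.8%) had one in the central 200 bp. The sequences are the GRCh37 reference on the plus strand, in lower case with each CACGTG in capitals. Members were named by their nearness to listed genes or by their number of E-boxes, and those printed here all hold CACGTG. Others named by nearness, such as those at FOSL2, MYCL and NGFR, held none.

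PRRX1, 1.34 kb upstream of the start, chr1:170630429-170630628: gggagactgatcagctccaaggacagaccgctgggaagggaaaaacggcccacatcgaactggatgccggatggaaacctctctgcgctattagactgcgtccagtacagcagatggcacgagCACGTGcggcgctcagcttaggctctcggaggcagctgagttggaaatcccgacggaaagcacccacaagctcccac
CHGA, 20.2 kb upstream, chr14:93369211-93369410: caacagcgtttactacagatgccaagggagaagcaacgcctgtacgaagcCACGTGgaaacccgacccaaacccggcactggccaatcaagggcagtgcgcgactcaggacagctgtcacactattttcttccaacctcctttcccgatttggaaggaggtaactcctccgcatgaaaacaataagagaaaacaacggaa
TIAM1, intron, 3.88 kb downstream of the start, chr21:32928315-32928514: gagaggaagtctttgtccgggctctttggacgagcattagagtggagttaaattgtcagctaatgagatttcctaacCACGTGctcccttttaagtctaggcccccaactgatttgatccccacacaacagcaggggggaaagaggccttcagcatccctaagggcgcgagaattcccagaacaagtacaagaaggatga
BCAR1, intron, chr16:75267904-75268103: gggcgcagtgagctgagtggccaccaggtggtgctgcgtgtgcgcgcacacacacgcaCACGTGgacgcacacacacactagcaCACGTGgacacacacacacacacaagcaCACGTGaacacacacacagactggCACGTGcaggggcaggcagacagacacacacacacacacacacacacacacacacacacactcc

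The stretch in BCAR1 was shifted to take in all of its E-boxes and runs past the end of the peak. The first 3 members each held a single E-box and the last held 4. In BCAR1, which encodes a docking protein of focal adhesions, the 4 E-boxes lay within a run of CA repeats. Members with several E-boxes were rare. Of all 3448 members, 2257 (65.5%) held no CACGTG anywhere in the peak, 1071 (31.1%) held 1, 104 (3.02%) held 2, 12 held 3 and 4 held 4 or more.

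The next pair of sequences shows the other motif that set the members apart, the consensus site of CTCF, the zinc finger protein that marks chromatin loop anchors and domain borders. Here the capitals mark the CTCF consensus, and both members were chosen after the values were seen, from those with the site nearest to the peak centre. The member nearest to TEX2 also holds a CACGTG, left here in lower case.

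AOC1, intergenic, chr7:150595648-150595847: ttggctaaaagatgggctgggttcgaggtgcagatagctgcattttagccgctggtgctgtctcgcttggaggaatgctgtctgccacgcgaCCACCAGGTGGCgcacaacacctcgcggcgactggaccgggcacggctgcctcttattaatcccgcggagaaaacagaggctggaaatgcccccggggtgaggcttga
TEX2, intergenic, 43.8 kb upstream, chr17:62384324-62384523: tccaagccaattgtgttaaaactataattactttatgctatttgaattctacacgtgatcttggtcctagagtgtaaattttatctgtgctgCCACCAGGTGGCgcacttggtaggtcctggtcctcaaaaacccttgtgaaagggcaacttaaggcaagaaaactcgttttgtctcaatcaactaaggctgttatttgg

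The members lay far from listed regions in most cases. Their median distance to the nearest listed N-Myc promoter, enhancer or super-enhancer was 118 kb, and 294 of them (8.53%) lay within 10 kb of one. Just inside the limit, 15 members lay within 100 bp of a listed region, the closest touching it and the fifth closest 14 bp away. Just outside the limit, 14 peaks that were not members overlapped a listed region by 50 bp or less, the smallest overlap being 11 bp and the fifth smallest 26 bp. No member overlapped a region listed for JMJD6. Of the 215 autosomal peaks shared with JMJD6, 148 (68.8%, interval 62.2 to 75) also lay outside the listed N-Myc regions.

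The members were narrow peaks. Their median width was 363 bp (quartiles 306 and 448, range 180 to 2055), against 467 bp for the 2563 peaks in distal typical enhancers, 505 bp for the 292 in super-enhancers and 450 bp for the 3501 at promoters. In these classes a peak that touched a promoter was counted as promoter, then as super-enhancer, and otherwise as distal typical enhancer. The median GC content of the central 200 bp was 50.5% in members, 50% in distal enhancers, 48.5% in super-enhancers and 59.5% at promoters. Width is part of the peak call and was not tested, and it enters every count over whole peaks because wider peaks hold more letters.

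The canonical E-box was found more often in members than in N-Myc peaks of distal enhancers. Over whole peaks, 1191 of 3448 members (34.5%, interval 33.0 to 36.2) held CACGTG, against 784 distal enhancer peaks (30.6%, 28.8 to 32.4) and 64 super-enhancer peaks (21.9%, 17.3 to 27.1). The odds ratio was 1.2 against distal enhancers (two-sided Fisher's exact test, adjusted p = 0.0019 over 3 classes) and 1.88 against super-enhancers (adjusted p = 2.29e-05). Promoter peaks held it more often still, in 1299 of 3501 (37.1%, 35.5 to 38.7), with an odds ratio of 0.895 for members (exact test, adjusted p = 0.026). That call did not hold with peaks within 10 kb counted once (odds ratio 0.919, exact test, adjusted p = 0.107) or in peaks with at least 90% unique 75-base words (0.909, adjusted p = 0.060). Windows of equal width placed 5 kb to each side of the members held it in 4.99%.

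In the central 200 bp, where each peak gives the same number of letters, the members had the highest pooled share of the 4 classes. The central share itself fell with peak width, and members were the narrowest class, so the values within bands of width are given further on. Within those bands no difference from promoters passed the test. CACGTG lay there in 994 members (28.8%, 27.3 to 30.4), in 19.9% of distal enhancer peaks (18.4 to 21.5), in 13.7% of super-enhancer peaks (9.97 to 18.2) and in 23.3% of promoter peaks (21.9 to 24.7). All 3 differences passed the two-sided Fisher's exact test, with odds ratios of 1.63 (adjusted p = 8.19e-15), 2.55 (adjusted p = 7.41e-09) and 1.34 (adjusted p = 1.29e-07). The order of members and promoters thus turned between the whole peak and its centre, and without peaks that resemble CpG islands the central difference from promoters had an odds ratio of 1.10 (exact test, adjusted p = 0.191). The 200 bp windows 5 kb beside the members held the motif in 2.60%. Counting any of the 3 E-box hexamers named above, 2260 members (65.5%) had an E-box in the centre, against 55.8% in distal enhancers, 50.7% in super-enhancers and 45.3% at promoters (adjusted p = 2.16e-14, 6.04e-07 and 1.62e-64, two-sided Fisher's exact test) and 16.0% in the windows beside members. Over whole peaks the same count turned direction against distal enhancers (odds ratio 0.965, exact test, adjusted p = 0.575) and did not pass against super-enhancers (1.18, adjusted p = 0.372).

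**Figure D1:**
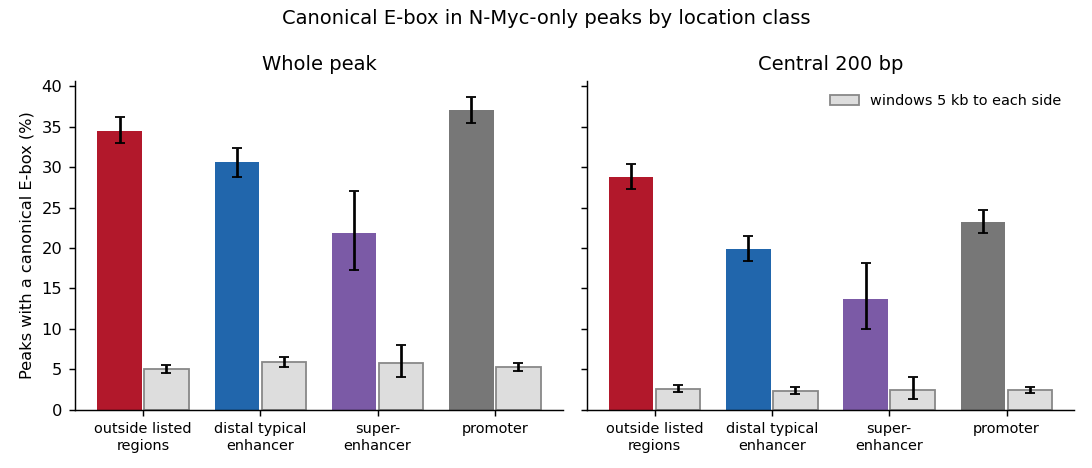
Share of N-Myc-only peaks (y axis, %) with a canonical E-box, by location class (x axis), over whole peaks on the left and the central 200 bp on the right. Coloured bars are the peaks, grey bars equal windows 5 kb to each side, and lines 95% exact binomial intervals; members reach 28.8% in the centre, above the 23.3% of promoter peaks, and every grey bar is under 6%.

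The E-box also lay closer to the middle of the members. Within 40 bp of the peak centre there were 5.13 E-boxes per 100 members per 20 bp, against 0.273 beyond 600 bp, a ratio of 18.8. The same ratio was 9.47 in distal enhancers, 8.57 in super-enhancers and 9.14 at promoters. Among peaks with an E-box within 500 bp of the centre, the nearest one lay at a median of 38 bp in members, 72 bp in distal enhancers, 67 bp in super-enhancers and 83 bp at promoters. It lay within 50 bp in 57.9% of such members and in 40.3% of such distal enhancer peaks. These offsets are descriptions without a test, and the narrower members bring the centre closer to any motif inside them.

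**Figure D2:**
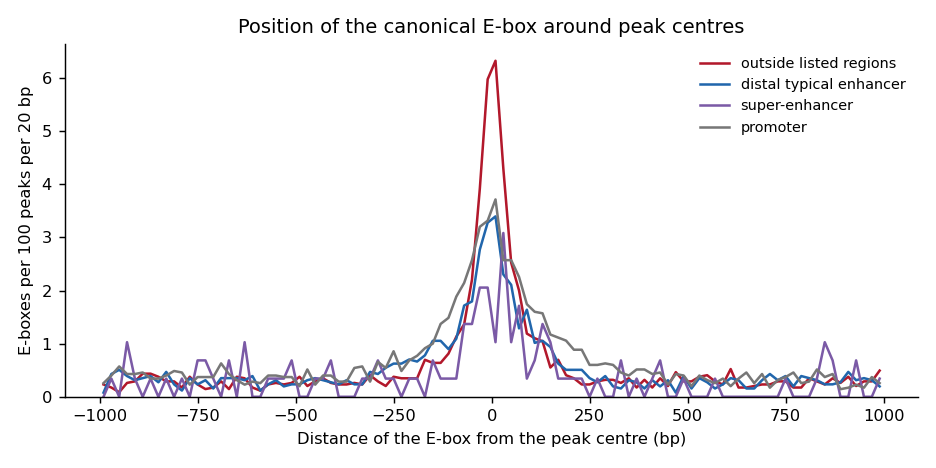
Number of canonical E-boxes per 100 peaks per 20 bp (y axis) against distance from the peak centre in bp (x axis), 1 line per location class. All classes peak at the centre, the members highest, at 5.13 within 40 bp against 2.94 in distal enhancers, and all return to about 0.3 beyond 600 bp.

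The surplus of E-boxes over distal enhancers was found in the narrower peaks. All autosomal N-Myc-only peaks were split into 4 bands of width with about equal numbers. In the narrowest band, 180 to 331 bp, 31.5% of 1261 members and 23.5% of distal enhancer peaks had a central E-box (odds ratio 1.49, adjusted p = 0.0082 over 4 bands, two-sided Fisher's exact test). From 332 to 415 bp the shares were 32.5% and 23.1% (odds ratio 1.60, exact test, adjusted p = 0.00018). From 416 to 557 bp they were 26.3% and 22.6% (exact test, adjusted p = 0.125), and in the widest band 14.7% of 375 members and 13.9% (adjusted p = 0.723). Against promoter peaks no band passed the test, with adjusted p-values from 0.207 to 0.867, and shares of 29.5%, 28.1%, 23.9% and 15.2% from narrow to wide. The split by width was chosen after the values were seen.

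**Figure D3:**
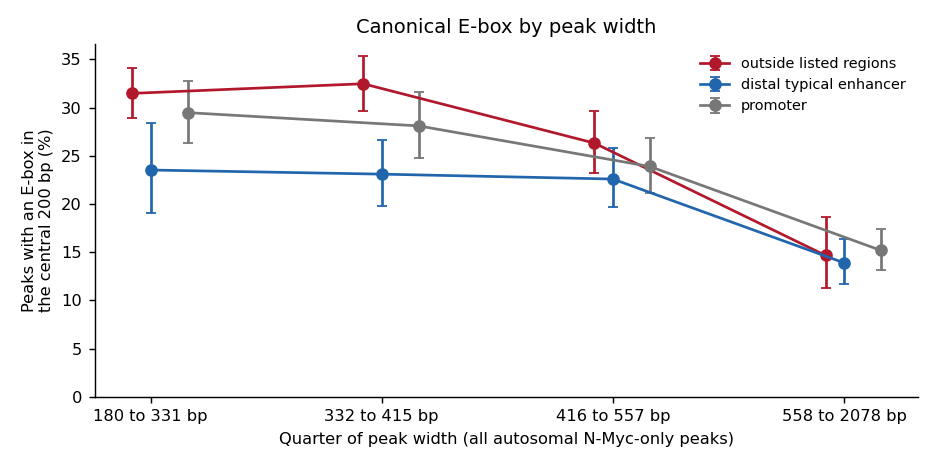
Share of peaks with a canonical E-box in the central 200 bp (y axis, %) in 4 bands of peak width (x axis), with 95% exact binomial intervals, for members, distal enhancer peaks and promoter peaks. Members stand above distal enhancers in the narrower bands, 32.5% against 23.1% at 332 to 415 bp, and all 3 classes fall to about 14 or 15% in the widest band.

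Bases next to the E-box were uneven. In the central 200 bp of members the base before CACGTG, read on both strands, was C in 46.8% of 2094 flanks, A in 23.6%, G in 21.5% and T in 8.07%. A flanking T is known to disfavour MYC and MAX and to favour some other factors of the family. In the windows beside members, T took 17% and C 27.9% of 358 flanks. Among the other classes T stood at 9.52% in super-enhancers, 11.9% in distal enhancers and 17.9% at promoters. C stood at 44%, 45.8% and 42.8% in the same order, close to the share in members. The 2 flanks of an E-box are not independent, and no test was made.

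The CTCF consensus was found in 195 members (5.66%, interval 4.91 to 6.48) in the central 200 bp. Only 23 distal enhancer peaks (0.897%, 0.570 to 1.34), 2 super-enhancer peaks (0.685%, 0.0831 to 2.45) and 32 promoter peaks (0.914%, 0.626 to 1.29) held it. The odds ratios of members were 6.62 against distal enhancers (adjusted p = 7.74e-26 over 3 classes, two-sided Fisher's exact test), 8.69 against super-enhancers (adjusted p = 2.69e-05) and 6.50 against promoters (adjusted p = 7.89e-31). Windows 5 kb beside the members held the consensus in 0.116%. Over whole peaks the shares were 6.84% in members and 1.64% in distal enhancers (odds ratio 4.41, exact test, adjusted p = 1.56e-23). This count was added after the data had been seen, and a match to the letters does not show that CTCF was bound.

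The CTCF consensus sat near the centre of members as the E-box did. Of the 247 members with a site within 500 bp of the centre, 130 (52.6%) had it within 50 bp, and the median offset was 45 bp, against 100 bp in 48 distal enhancer peaks. The 195 members lay on all 22 autosomes, 92 in introns, 22 in exons and 81 between genes. Their median width was 333 bp, against 365 bp in the other members. CACGTG was also present in the centre of 64 of them (32.8%, interval 26.3 to 39.9), against 28.6% (27 to 30.2) of members without the consensus. The intervals of these shares overlap, and the pair was not tested.

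Among the 21 motifs of the panel, 4 were more frequent in the centre of members than of distal enhancer peaks, 1 was less frequent and 16 did not pass the test (two-sided Fisher's exact test, adjusted over 21). Over whole peaks 2 were more frequent and 14 less frequent. Bands of width were made for CACGTG only, and the part of peak width in the central shares of the other panel motifs was not tested. Besides the canonical E-box, CATGTG stood at 40.1% in members and 35.9% in distal enhancers (odds ratio 1.2, exact test, adjusted p = 0.0041), with 13% in the windows beside them. The letters CCAGNNGGC, which match some forms of the last 9 letters of the CTCF consensus and so overlap the count above, stood at 12.8% and 7.57% (odds ratio 1.79, exact test, adjusted p = 5.48e-10). In 79 members they lay inside a consensus site, and leaving out peaks with the consensus they were in 350 members (10.2% of all) and 183 distal enhancer peaks (7.14%), with no test. The satellite unit GGAATGGAA was held by 33 members and 5 distal enhancer peaks (odds ratio 4.94, exact test, adjusted p = 0.0006). Its share was 0.957% in members, close to the 0.784% in the windows 5 kb beside them. Of those 33 members, 21 lay within 1 Mb of an assembly gap, and without such peaks the adjusted p was 0.53.

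CAGATG, an E-box taken by HAND and TWIST dimers, was the motif found less often in members, at 34.4% against 39.3% (odds ratio 0.81, exact test, adjusted p = 0.0006). CAGCTG, taken by E-proteins and proneural dimers, was in 23.6% of members and 24% of distal enhancer peaks, and CACGCG in 5.37% and 5.85%. The GATA motif AGATAAG (2.76% and 3.12%), the homeodomain core TAATTA (8.85% and 8.86%) and the AP-1 motif TGANTCA (7.34% and 7.57%) did not pass the test either. GATA3 and HAND2 are among the core factors of the adrenergic state of neuroblastoma. Over whole peaks, which are wider in distal enhancers, CATGTG turned to 52.2% in members against 54.9% (odds ratio 0.90), and CCAGNNGGC gave 18.1% and 17.8% (exact test, adjusted p = 0.839).

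**Figure D4:**
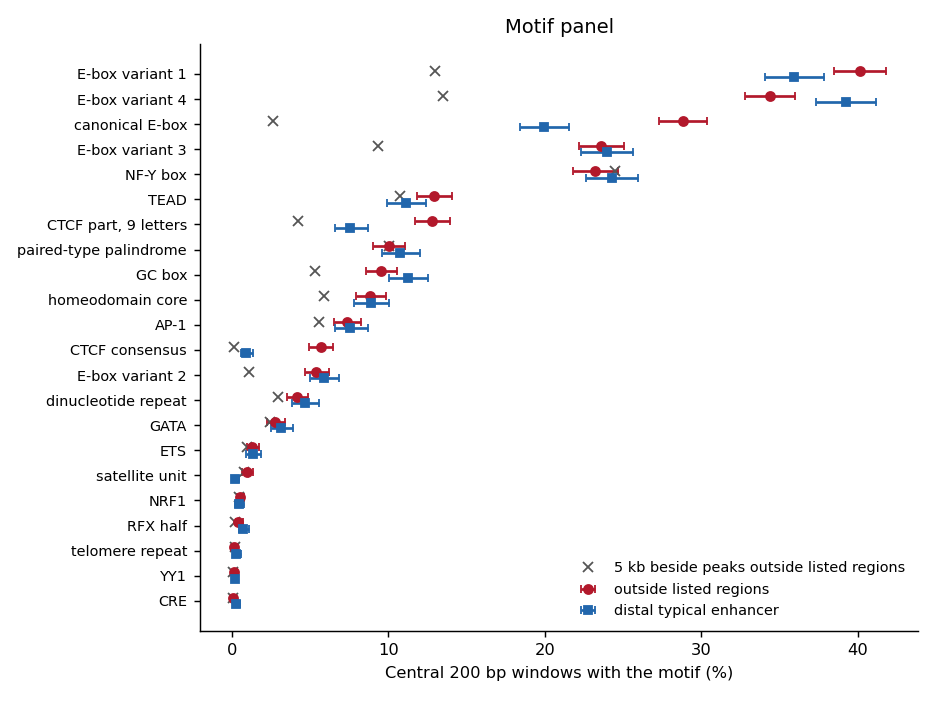
Share of central 200 bp windows (x axis, %) that hold each motif (y axis) in members (circles), distal enhancer peaks (squares) and windows 5 kb beside members (crosses), with 95% exact binomial intervals on the peaks. E-box variant 1 is CATGTG, variant 2 the hexamer CACGCG, variant 3 the hexamer CAGCTG, variant 4 the hexamer CAGATG, and the CTCF part the 9 letters CCAGNNGGC; the canonical E-box (28.8% against 19.9%) and the CTCF consensus (5.66% against 0.897%) lie clear of the squares.

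More members than distal enhancer peaks lay between genes. The midpoint was intergenic in 1259 members (36.5%), in an intron of 1895 (55.0%) and in an exon of 294 (8.53%), against 27.3%, 62.5% and 10.2% of distal enhancer peaks. The odds ratios were 1.53 for intergenic (adjusted p = 1.05e-13), 0.731 for intron (adjusted p = 5.52e-09) and 0.82 for exon (adjusted p = 0.031, two-sided Fisher's exact test, adjusted over 3 locations). Among members, a central E-box was present in 28.7% of intronic and 28.9% of intergenic ones (odds ratio 0.990, exact test, adjusted p = 1). The exon difference did not hold without peaks within 1 kb of a start site, where the odds ratio was 1.10 (exact test, adjusted p = 0.498).

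Most members lay within reach of an annotated start site without being at one. Counting coding and long non-coding genes, an annotated start lay within 10 kb of 45.1% of members, within 50 kb of 81.4% and within 100 kb of 92.3%, and the median distance was 12.1 kb. Within 1 kb there were 304 members (8.82%), 187 of them nearest to a coding and 117 to a long non-coding gene. Only 41 members lay within 1 kb of the outermost 5′ end of a coding gene, so most of the 304 were near inner starts or non-coding ones. Their central E-box share was 28.9% (interval 23.9 to 34.4), and in the 640 members over 50 kb from any start it was 24.7% (21.4 to 28.2).

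Listed N-Myc promoters of neighbouring genes are given as a description, since the rule used the same promoter list. A listed N-Myc promoter belonged to the nearest coding gene of 575 members (16.7%, interval 15.4 to 18), of 24.2% of distal enhancer peaks and of 36.0% of super-enhancer peaks. Over all 19222 autosomal coding genes the share with a listed promoter was 17.8%. Because the rule removed peaks at listed promoters, closeness to such genes was in part set by the choice of members.

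CpG-island-like sequence, defined by GC of at least 55% and observed over expected CpG of at least 0.6 in the centre, was rare in members. It was found in 224 (6.50%), against 8% of distal enhancer peaks (odds ratio 0.80, exact test, adjusted p = 0.039), 6.51% of super-enhancer peaks (odds ratio 0.998, adjusted p = 1) and 56.1% of promoter peaks (odds ratio 0.0543). For promoters the p of the two-sided Fisher's exact test was below the range of the arithmetic. The rule removed every peak at a listed promoter, so the contrast with promoters was in part set by the choice of members. The difference from distal enhancers did not hold without peaks within 1 kb of a start site (odds ratio 1.04, exact test, adjusted p = 0.799).

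A small number of members sat in sequence that short reads cannot place well. Under 50% of the 75-base words of the peak were unique in the reference in 25 members (0.725%), 4 distal enhancer peaks (0.156%, odds ratio 4.67, exact test, adjusted p = 0.0035), 9 promoter peaks (0.257%, odds ratio 2.83, adjusted p = 0.0083) and 0 of 292 super-enhancer peaks, for which 3 counts would be a share of 1.03% and the exact upper bound is 1.26%. Members no more than 1 Mb away from a gap of the assembly (50 kb or longer) numbered 474 (13.7%), against 10.2%, 9.59% and 11.7% of distal enhancer, super-enhancer and promoter peaks (odds ratios 1.4, 1.5 and 1.2, adjusted p = 0.0001, 0.049 and 0.019, two-sided Fisher's exact test). The call against super-enhancers did not hold for gaps within 100 kb (exact test, adjusted p = 0.141) or with peaks within 10 kb counted once (adjusted p = 0.0887), nor did that against promoters when counted once (odds ratio 1.08, adjusted p = 0.299). The central E-box share was 28.7% in gap-adjacent and 28.9% in other members (exact test, adjusted p = 1), and 6 of the 25 members of low uniqueness had one. In 86 members at least 50% of the 24-base words of the centre had 10 or more copies in the genome, and 12 of these (14%, interval 7.42 to 23.1) held an E-box.

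Members were spread over all 22 autosomes. Compared with the other N-Myc-only peaks, chromosome 12 held a smaller share of the members (4.06% against 5.95%, odds ratio 0.669, adjusted p = 0.00062) and so did chromosome 19 (3.19% against 5.07%, odds ratio 0.618, adjusted p = 0.00025, two-sided Fisher's exact test over 22 autosomes). The other peaks all lay in listed regions, so these shares depend in part on where the listed regions lie. No chromosome passed the test with a larger share, while chromosomes 2, 8 and 22, 3 in all, had an unadjusted p under 0.05. Per Mb, chromosome 17 had the most members, 3.24. Of its N-Myc-only peaks 35.6% were members, near the 35.2% over all autosomes (odds ratio 1.02, exact test, adjusted p = 0.976). The part of the gain on this chromosome in that density was not tested.

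**Figure D5:**
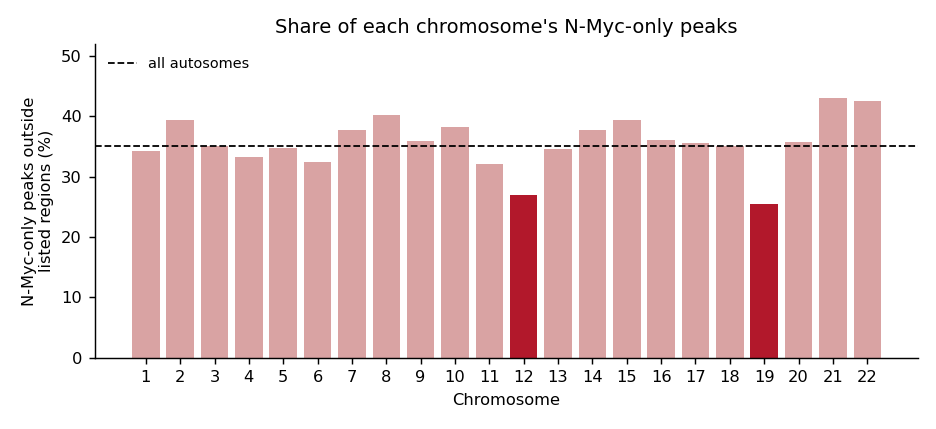
Share of each autosome's N-Myc-only peaks (y axis, %) that lay outside listed regions, by chromosome (x axis). The dashed line is the share over all autosomes, 35.2%; dark bars, chromosomes 12 (27%) and 19 (25.5%), are those with an adjusted p under 0.05.

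The densest 1 Mb bin of members lay beside MYCN on chromosome 2, at 15 to 16 Mb. It held 26 members out of 30 N-Myc-only peaks, between chr2:15048529 and chr2:15717624. NBAS, a gene of retrograde transport close to MYCN and often amplified with it, held 19 of them, or 4.82 per 100 kb of its length. In 1 of the 26 a CACGTG lay in the centre, and 20 of the 26 lay within 1 Mb of an assembly gap. From 14 to 18 Mb, 40 of 49 N-Myc-only peaks were members (81.6%), their median width was 511 bp and 1 of 40 had a central E-box (2.50%, interval 0.0633 to 13.2). Of these 40, 25 lay within 1 Mb of an assembly gap, and the part of this in the count was not tested. CHP-134 is MYCN-amplified according to the paper, and the part of copy number in these counts, widths and E-box shares was not tested. The whole-peak E-box differences given above held without this stretch.

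The member nearest to the MYCN start itself, chr2:16054607-16055581, was an intergenic peak of 975 bp located 25.6 kb upstream and had no CACGTG. The widest members came from the same stretch of chromosome 2 and from chromosome 20. They were chr2:14919195-14921249 (2055 bp), chr2:14886327-14888045 (1719 bp), chr20:29588197-29589868 (1672 bp), chr2:15055815-15057246 (1432 bp) and chr20:29607133-29608527 (1395 bp). None of these 5 had CACGTG in the centre. The pair on chromosome 20 lay 64.0 and 45.4 kb from an assembly gap, in a bin at 29 to 30 Mb where 13 of 16 N-Myc-only peaks were members and all 13 were gap-adjacent.

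Chromosome 17 held the second densest bin and one that equalled the bin on chromosome 20. At 79 to 80 Mb, 14 of 35 N-Myc-only peaks were members, beside a share of 35.2% over all autosomes. All 14 were gap-adjacent, and 5 of them had a central E-box. At 36 to 37 Mb, 13 of 22 were members, 2 with an E-box, and none of these 13 was gap-adjacent.

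Members were next assigned to the coding gene with the nearest start site, to see which neuroblastoma genes they neighbour. Over all 19222 autosomal coding genes, 2599 (13.5%) were nearest to at least 1 member and 1834 (9.5%) to at least 1 distal enhancer peak. No set test was run. Whether a peak away from promoters was a member or a distal enhancer peak was set by the enhancer lists, so contrasts between these counts depend on the choice of members. How much of the genome lies nearest to each gene was not taken into account, and a gene with distant neighbours is nearest to more of it. The lists were drawn up with earlier results of these data known.

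Genes of the adrenergic core, the transcription factors that hold neuroblastoma cells in a sympathetic neuron-like state, had members for 11 of 20. Among them were TBX2 with 4, DACH1 with 3, EYA1 with 2, and HAND2, GATA3, GATA2, INSM1, SIX3 and TCF4 with 1 each. Distal enhancer peaks were also nearest to 11 of the 20, and 3 genes had members alone. One of the TBX2 members, chr17:59457777-59458111, lay 19.3 kb upstream in an intron of BCAS3 and held a central E-box. A neighbour at chr17:59458984-59459313, 18.1 kb upstream, held none. The SIX3 member, chr2:45182868-45183620, lay 14.4 kb downstream of the start, with a CACGTG outside its centre.

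Regulators of the mesenchymal state had members for 8 of 20, against distal enhancer peaks for 2. SOX9 had 4, PRRX1, FOSL2 and TEAD1 had 2 each, and JUN, RUNX2, SNAI2 and NOTCH3 had 1 each. PRRX1 encodes a homeodomain factor that can drive adrenergic cells toward the mesenchymal state. Both of its members held a central E-box, and the one printed above, chr1:170630377-170630680, lay 1.34 kb upstream of its start. FOSL2, an AP-1 subunit, had chr2:28613402-28613769, 1.73 kb upstream, and SNAI2, a zinc finger repressor, had a member 1.85 kb upstream. Neither of these held CACGTG. For 5 of the 8 genes no distal enhancer or promoter peak was nearest. Both contrasts with other peaks were in part set by the choice of members.

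In the MYC network 6 of 13 genes had members. MYCN had 4, and MYC, MYCL, MNT, MGA and MLXIPL had 1 each. MLXIPL encodes ChREBP, a glucose-responsive factor of the same helix-loop-helix family. The MYCL member, chr1:40364607-40365147, lay in an intron 3.05 kb past the start and had no CACGTG. The MNT member, chr17:2283472-2283999, lay 20.7 kb past the start in an exon of SGSM2, with its E-box outside the centre. The member closest to the MYC start lay 246 kb upstream but was nearer to another coding gene, so it is not the one counted here.

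For catecholamine and vesicle genes, members were nearest to 5 of 14, and distal enhancer peaks to 6. CHGA, which encodes the granule protein chromogranin A, had 3, of which 2 held a central E-box. The one printed above, chr14:93369058-93369563, was 20.2 kb upstream. The member of DBH, the enzyme that makes noradrenaline from dopamine, was chr9:136524088-136524362, in an exon 22.7 kb past the start, and held an E-box. The member of SLC18A2, the vesicular monoamine transporter, was chr10:119017199-119017509, in an exon 16.8 kb past the start, and held none. SYT1 and GCH1 had 1 member each.

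Receptors of the sympathetic lineage had 5 members in all for 5 of 15 genes, NGFR, GFRA1, GFRA2, CHRNA3 and CXCR4. None of the 5 held a central E-box. ALK and RET, receptor tyrosine kinases of this lineage, were not the nearest coding gene of any member, though 2 members lay within the body of ALK. The NGFR member, chr17:47575070-47575444, lay in an intron 2.60 kb past the start, and the GFRA1 member, chr10:117984361-117984812, in an intron 51.7 kb past it.

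Axon guidance and adhesion genes had 33 members for 19 of 30. Distal enhancer peaks were likewise nearest to 19 of them, and 7 genes had members alone. PLXNA4, a semaphorin co-receptor, had 4 in its body, ROBO1, a receptor for the SLIT ligands, had 3, and PLXNA2 had 2, both with a central E-box. The SLIT1 member, chr10:98970331-98970571, was 24.7 kb upstream in an intron of the ARHGAP19-SLIT1 read-through gene and held an E-box.

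Neuroblastoma susceptibility genes had 25 members for 4 of 16, of which 19 belonged to NBAS. BARD1, the partner of BRCA1 in DNA repair, had 3, each with a central E-box. TIAM1, an exchange factor for the GTPase RAC1, had the intronic member printed above, chr21:32928246-32928584, and chr21:32956360-32956673, 24.2 kb upstream and without an E-box. The DDX1 member, chr2:15717195-15717624, was 13.9 kb upstream and lay in the dense bin beside MYCN. Promoter peaks were nearest to 9 of the 16 genes.

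At the other genes the study turned on, the member nearest to E2F2, chr1:23866210-23866778, lay 8.77 kb upstream of its start and had no CACGTG. The member nearest to JMJD6, chr17:74916555-74916905, was 194 kb upstream, in an intron of MGAT5B, with a CACGTG outside its centre. The member with the most E-boxes, 5, covered a start site of ZNF565 at chr19:36736968-36737303. Its midpoint lay 23 bp past that start, and how many other members cover a start site was not counted.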

How the data were processed

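The deposited lists give start and end positions in bp on hg19 (GRCh37), with no score or read number. According to the paper's methods and the submitters' processing notes, the authors aligned reads with BWA, called peaks with MACS2 (2.1.1.20160309) against input, and took promoters as 1 kb to each side of RefSeq starts and enhancers from H3K27ac signal with ROSE. Lists common to the 3 replicates of each antibody were used (9 lists), so values per sample, depth and replicate spread are unknown. Intervals cover counting error only, and neighbouring peaks are not independent.

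Overlap meant at least 1 bp. Sequence came from GRCh37 and genes from GENCODE 44 lifted to it. Of 4724 N-Myc promoters with a symbol in that annotation, 87.9% were centred within 100 bp of an annotated start. Shares were compared by two-sided Fisher's exact tests with Benjamini-Hochberg adjustment (threshold 0.05), in Python 3.11.15 with SciPy 1.17.1, and the procedure was tested on simulated data. Named members were those nearest to MYCN, MYC, E2F2 and JMJD6, up to 3 nearest to each list's start sites, the 5 widest, the 5 with most CACGTG and the 3 densest 1 Mb bins. Members and lists were chosen with earlier results of these data known. The CTCF consensus, width bands and nearest genes with listed promoters were added after the data were seen. Some items that these rules name are not reported here.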

Additional observations from a re-analysis of the deposited data

How the results depend on the processing

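Of 147 alternative values for 27 results, 115 were counted as unchanged. For tests this meant the same direction and side of the threshold, and for numbers of motifs or chromosomes an equal or close number. The CTCF differences were unchanged in all of theirs (odds ratios 4.41 to 10.7). No wide super-enhancer peak held the consensus, so that comparison has no odds ratio. For the values that changed the odds ratios were as follows, and the cause was not tested. For the whole-peak E-box against distal enhancers, 1.07 in peaks at least as wide as the median and 0.965 with the 3 E-box hexamers together, which gave 1.18 against super-enhancers. Against promoters, 0.919 with peaks within 10 kb counted once, 0.909 in peaks with at least 90% unique words, 1.34 in the central 200 bp, 1.62 with 3 hexamers, and in the centre 1.10 without CpG-island-like and 1.35 without gap-adjacent peaks. For CpG-island-like share against distal enhancers, 0.812 at 1 kb or more from listed regions, 0.813 in wide peaks, 0.864 without gap-adjacent peaks, 0.813 without chromosome 2 from 14 to 18 Mb, 1.04 without start sites and 0.859 over whole peaks. Against super-enhancers it was 1.15 in wide peaks, 1.11 without gap-adjacent peaks, 1.63 without start sites, 1.17 counted once, 1.01 in unique peaks and 1.11 over whole peaks. Low uniqueness gave 2.59 against super-enhancers at a limit of 90% and 2.92 against promoters without gap-adjacent peaks. Gap-adjacent share gave 2.22 within 100 kb and 1.64 counted once against super-enhancers, and 1.08 counted once against promoters. Exon share gave 0.864 at 1 kb, 0.881 without gap-adjacent peaks, 0.834 counted once and 1.10 without start sites. Over whole peaks 2 panel motifs were higher in members (4 in the centre) and 14 lower (1 in the centre). In the centre without gap-adjacent peaks 3 were higher, which was counted among the 115.

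No paired analysis was possible because the lists hold no values per sample, and for the same reason no replicate was left out in turn. The planned share of repeat-masked peaks was not run because the reference is not soft-masked; repeated 24-base words took its place, chosen after seeing the data, as were the alternatives without CpG-island-like peaks and those in the centre without gap-adjacent peaks. Without height or depth, weak and strong peaks count alike, and a peak called in fewer replicates is not listed.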

Other observations

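Counted without a chosen motif, the hexamers most above the windows 5 kb beside members were those of the E-box. Among 1716 hexamers found in at least 100 members' central 200 bp, CACGTG led with a ratio of 11.1, followed by ACGTGG (7.01), ACGTGC (5.28), CGTGGC (5.09) and ACACGT (5.03), which overlap it, and CACGCG (4.93). TCCGCA, which shares no 4 letters in a row with CACGTG, stood at 5.08% of members and 1.31% of windows beside them.

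Few genes held several members in their bodies, and gene length and the same count for other peaks were not taken into account. Among all 19222 autosomal coding genes, 1415 had a member in the body. Of these 1415 genes, 1161 held 1 and 24 held 4 or more. After NBAS, AUTS2 held 6 along 1195 kb. GSE1 held 5, of which 3 had a central E-box, beside 21 other N-Myc-only peaks. These genes were named after their values were seen, as was MYOM2, which held 4 within 120 kb and no other N-Myc-only peak.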
